A study of Homo sapiens with 9 samples.

Results

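The genes of fatty acid synthesis and desaturation were followed in RNA sequencing libraries of cells with hairpins against the long noncoding RNA gene SNHG1. They are 10 genes taken by symbol, SREBF1, ACLY, ACACA, ACACB, FASN, SCD, ELOVL5, ELOVL6, FADS1 and FADS2, and all 10 were found among the 27407 features of the deposited table. All 10 also passed the filter on low counts, which left 18767 features to test. The cells are labelled Weri-RB1/CRP, a retinoblastoma line resistant to carboplatin, and were grown in RPMI medium with serum. The groups carried the hairpin shSNHG1#1 (3 libraries), the hairpin shSNHG1#2 (3 libraries) or the control hairpin shNC (3 libraries), and the labels name neither a drug treatment nor a parental line among them. The series title ties SNHG1 to resistance to carboplatin. SNHG1 was not analysed here, so the groups follow the labels and the knockdown itself is not checked. Whether the replicates are separate cultures is not stated in the labels, and the p-values therefore reflect the spread among the libraries alone, part or all of which may be technical.

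Cells build fatty acids from citrate that leaves the mitochondria. ATP citrate lyase (ACLY) splits it to acetyl-CoA, the acetyl-CoA carboxylases (ACACA and ACACB) turn that into malonyl-CoA, and fatty acid synthase (FASN) assembles palmitate from both. Stearoyl-CoA desaturase (SCD) makes monounsaturated products, elongases such as ELOVL6 and ELOVL5 lengthen chains, and the fatty acid desaturases FADS2 and FADS1 act on the path from dietary essential fatty acids to arachidonic and docosahexaenoic acid. The transcription factor SREBP1, encoded by SREBF1, is released from the endoplasmic reticulum membrane when lipids are scarce and switches on most of these genes. Docosahexaenoic acid is a main constituent of photoreceptor outer segments, and many tumour cells make their own palmitate.

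Some properties of the libraries bear on every result. Each library held from 21502093 to 21606498 estimated counts. The most abundant feature, which has no gene symbol, took 12.21 to 13.54% of counts with shSNHG1#1, 11.77 to 12.12% with shSNHG1#2 and 6.57 to 7.09% with shNC. Of 11 cone photoreceptor markers in the table, 9 were below 1 FPKM (fragments counted per kilobase of transcript and per unit of library depth) in every group, and so were 10 of 11 rod markers and 8 of 9 lineage and retinoblastoma markers. CRX did not exceed 0.03 FPKM and RCVRN did not exceed 0.09 FPKM, so the labelled cell type is not borne out by its defining markers. Epithelial markers summed to between 2242 and 2432 FPKM over the 9 libraries, most of it the keratin genes KRT8, KRT18 and KRT7. Of the 13 epithelial markers, 3 were below 1 FPKM in every group, and EPCAM did not exceed 3.56 FPKM. Immune and endothelial markers summed to 88.4 to 100.5 FPKM with shSNHG1#1, 125.4 to 129.2 FPKM with shSNHG1#2 and 273.0 to 290.3 FPKM with shNC, most of it CD68, while PTPRC stayed at or below 0.42 FPKM. Adipocyte markers summed to 1.63 to 3.43 FPKM with shSNHG1#1, 1.68 to 1.92 FPKM with shSNHG1#2 and 0.67 to 1.01 FPKM with shNC, and ADIPOQ did not exceed 0.03 FPKM. Fibroblast markers summed to 6.30 to 24.64 FPKM with shSNHG1#1, 6.01 to 7.23 FPKM with shSNHG1#2 and 3.28 to 4.63 FPKM with shNC. The part of these cell type markers in the results was not tested. In bulk RNA, fewer cells of a type and less RNA per cell cannot be told apart.

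The library shSNHG1#1 replicate 1 stood apart in connective tissue transcripts. It had 9.80 FPKM of the fibroblast proteoglycan gene DCN, against at most 0.81 FPKM in the other 8 libraries, and 1.52 FPKM of FABP4, against at most 0.17 FPKM. Without it the 10 genes kept every call against shNC, and each count of rising or falling genes in the 11 lists read further on moved by at most 2.

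Promoter sequences were looked up for all 10 genes. RefSeq (GRCh38.p14) windows, from 250 bases before to 50 after a transcript start, matched 9 of the 10 genes with 14 windows. FASN had no match. The windows below are those of ACACA (chr17:37406787-37407086, minus strand, the first listed of 3), ELOVL5 (chr6:53348901-53349200, minus strand), ELOVL6 (chr4:110198566-110198865, minus strand) and SCD (chr10:100346983-100347282, plus strand). They are shown because these genes passed the test with each hairpin, ACACA, ELOVL5 and ELOVL6 as higher and SCD as lower. Letters run 5′ to 3′, and capitals mark matches on either strand to the E-box (letters CACGTG), the NF-Y box (letters CCAAT) or the GC box (letters GGGCGG). On the opposite strand the NF-Y box reads ATTGG and the GC box reads CCGCCC. Overlapping matches of the GC box form a continuous run of capitals.
ACACA: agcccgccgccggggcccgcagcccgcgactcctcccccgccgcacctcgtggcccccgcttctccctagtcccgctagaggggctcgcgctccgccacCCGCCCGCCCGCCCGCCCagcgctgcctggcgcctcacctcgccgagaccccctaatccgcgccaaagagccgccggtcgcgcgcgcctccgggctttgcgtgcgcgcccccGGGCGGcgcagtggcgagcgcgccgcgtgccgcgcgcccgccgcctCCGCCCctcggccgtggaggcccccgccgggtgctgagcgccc
ELOVL5: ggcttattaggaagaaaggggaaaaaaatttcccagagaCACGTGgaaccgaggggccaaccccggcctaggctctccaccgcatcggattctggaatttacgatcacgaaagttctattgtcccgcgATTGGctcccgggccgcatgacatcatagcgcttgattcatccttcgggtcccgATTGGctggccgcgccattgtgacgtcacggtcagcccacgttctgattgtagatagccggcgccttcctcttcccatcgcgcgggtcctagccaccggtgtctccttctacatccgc
ELOVL6: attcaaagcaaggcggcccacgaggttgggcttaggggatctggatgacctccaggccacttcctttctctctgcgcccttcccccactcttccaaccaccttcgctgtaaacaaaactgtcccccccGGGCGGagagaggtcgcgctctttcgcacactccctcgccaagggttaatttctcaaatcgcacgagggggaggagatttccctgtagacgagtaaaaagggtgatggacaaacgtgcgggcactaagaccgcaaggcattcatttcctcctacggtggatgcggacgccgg
SCD: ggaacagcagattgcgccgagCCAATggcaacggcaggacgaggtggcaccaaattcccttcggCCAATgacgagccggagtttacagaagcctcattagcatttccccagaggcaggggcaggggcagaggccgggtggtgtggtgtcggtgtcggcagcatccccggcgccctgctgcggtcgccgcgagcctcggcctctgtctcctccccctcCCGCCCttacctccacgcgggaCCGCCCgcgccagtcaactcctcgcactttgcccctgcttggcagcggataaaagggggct
The E-box, a motif bound by USF and MYC factors among others, was found in 1 of the 14 windows, that of ELOVL5, against 7.26% of all 35116 RefSeq windows. NF-Y boxes stood in 8 of the 14 windows and GC boxes in 10, against 34.6% and 45% of all windows. The windows of ACLY overlap and hold the same NF-Y and GC boxes, so these sites are counted more than once. The sterol regulatory element of the LDL receptor promoter had no match in the 14 windows and a match in 0.0456% of all windows. The genes that rose and the gene that fell shared some motifs: the window of ACACA shown held 6 GC boxes, that of ELOVL6 held 1, that of ELOVL5 held 2 NF-Y boxes, and that of SCD held 2 NF-Y boxes and 2 GC boxes. Of the other windows of ACACA, the second held 7 GC boxes and 1 NF-Y box, and the third held 0 GC boxes and 2 NF-Y boxes.

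The steps of the pathway did not move together. With shSNHG1#1, the transcripts of palmitate synthesis (FASN and ACACA) and of elongation (ELOVL5 and ELOVL6) were 1.45-fold to 1.75-fold higher than with shNC. With shSNHG1#2 the same transcripts were 1.42-fold to 1.55-fold higher. SCD was lower with each hairpin, by 0.12 and 0.37 on the log2 scale, and SREBF1 and ACACB did not pass the test with either on TMM scaling. ACLY and FADS1 passed as higher with shSNHG1#1 and did not pass with shSNHG1#2, and FADS2 passed as lower with shSNHG1#2 and did not pass with shSNHG1#1. The contrasts against shNC share the shNC libraries, so they are not independent of each other.

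**Figure D1:**
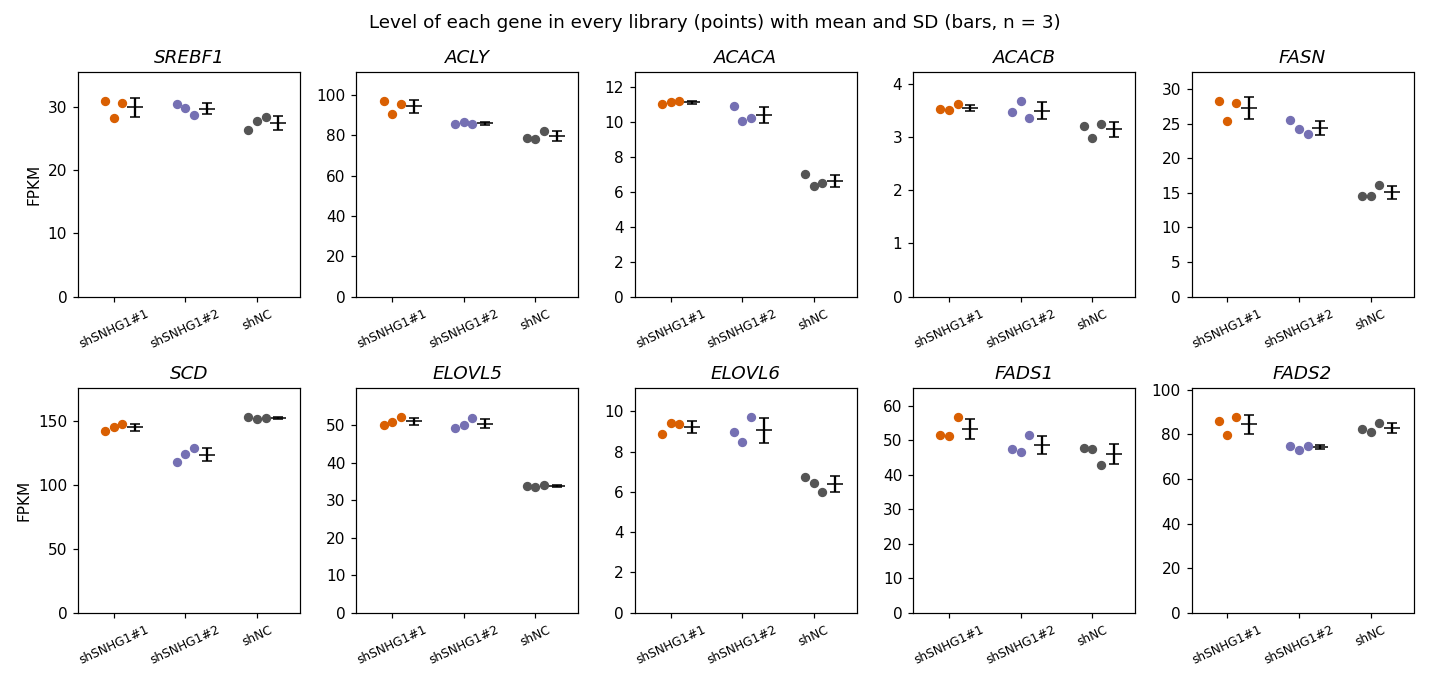
Level of each of the 10 genes in FPKM (vertical axis, from 0) in every library (points), with the mean and SD of the 3 libraries of each group (bars). FASN, ACACA, ELOVL5 and ELOVL6 lie higher in all libraries of each SNHG1 hairpin than in all shNC libraries, and SCD lies lower.

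By level, SCD stood highest in all 9 libraries, between 118 and 153 FPKM, which put it at or above the 97.6th percentile of tested features. ACLY (78.4 to 97.0 FPKM) and FADS2 (73.0 to 87.6 FPKM) followed and overlapped each other. FADS1 (42.7 to 56.6 FPKM) and ELOVL5 (33.6 to 52.1 FPKM) also overlapped, and so did SREBF1 (26.3 to 30.9 FPKM) and FASN (14.5 to 28.3 FPKM). ACACA (6.35 to 11.2 FPKM) and ELOVL6 (5.97 to 9.69 FPKM) overlapped further down. ACACB was the lowest of the 10, between 2.98 and 3.67 FPKM. The summed level of the 10 genes was 509 ± 13.3 FPKM with shSNHG1#1, 460 ± 6.99 FPKM with shSNHG1#2 and 453 ± 3.52 FPKM with shNC (SD, n = 3 each).

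SREBF1, whose protein is the regulator of the pathway, had 30.9, 28.2 and 30.7 FPKM with shSNHG1#1, 30.4, 29.9 and 28.7 FPKM with shSNHG1#2, and 26.3, 27.7 and 28.4 FPKM with shNC. The shSNHG1#1 libraries overlapped those of shNC, and the lowest shSNHG1#2 library lay just above the highest of shNC. The log2 fold change from counts was 0.07 for shSNHG1#1 against shNC (95% interval -0.02 to 0.15) and 0.02 for shSNHG1#2 against shNC (-0.07 to 0.10). Neither passed edgeR's quasi-likelihood test with Benjamini-Hochberg adjustment over 18767 features (adjusted p = 0.2 and 0.75). FPKM is scaled to the library total and the test to TMM factors, which shifts the median log2 fold change of all features by 0.046 (shSNHG1#1) and 0.065 (shSNHG1#2) between the scales. On library totals alone SREBF1 passed with shSNHG1#1 (log2 fold change 0.11, adjusted p = 0.0405), where the median of all features was 0.07. On totals without the most abundant feature it passed with shSNHG1#1 (0.21, adjusted p = 0.000876) and shSNHG1#2 (0.16, adjusted p = 0.00428). All features had medians of 0.17 and 0.16 on those totals. Exons of SREBF1 share 556 bases with RAI1 on the opposite strand, and no source used here says whether counting used strand, which leaves reads of that stretch uncertain.

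ACLY, which supplies cytosolic acetyl-CoA, had 97.0, 90.7 and 95.5 FPKM with shSNHG1#1, 85.7, 86.8 and 85.6 FPKM with shSNHG1#2, and 78.5, 78.4 and 82.4 FPKM with shNC. The 3 groups did not overlap, and shSNHG1#1 was the highest. ACLY rose with shSNHG1#1 against shNC (log2 fold change 0.20, SE 0.03, adjusted p = 0.00014). With shSNHG1#2 the log2 fold change was 0.04 (95% interval -0.02 to 0.10, adjusted p = 0.27). That second value passed on library totals alone, where it was 0.10 (adjusted p = 0.0139). It also passed on totals without the most abundant feature, where it was 0.19 (adjusted p = 0.000201). The medians of all features with shSNHG1#2 were 0.08 and 0.16 on these scalings. Exons of ACLY share 156 bases with an antisense transcript, AC125257.2.

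The acetyl-CoA carboxylases make malonyl-CoA, the cytosolic enzyme ACACA for synthesis and the enzyme ACACB at the mitochondrial surface, where malonyl-CoA holds back fatty acid entry. ACACA had 11.03, 11.15 and 11.20 FPKM with shSNHG1#1, 10.9, 10.1 and 10.2 FPKM with shSNHG1#2, and 7.03, 6.35 and 6.51 FPKM with shNC. Every library of either SNHG1 hairpin lay above every shNC library. ACACA rose 1.61-fold with shSNHG1#1 (log2 fold change 0.69, SE 0.05, adjusted p = 5e-07) and 1.49-fold with shSNHG1#2 (log2 fold change 0.58, SE 0.05, adjusted p = 2.5e-06). ACACB averaged 3.55 ± 0.0569 FPKM with shSNHG1#1, 3.49 ± 0.163 FPKM with shSNHG1#2 and 3.14 ± 0.142 FPKM with shNC (SD, n = 3 each). Its log2 fold changes from counts were 0.09 (95% interval -0.03 to 0.20) and 0.05 (-0.07 to 0.17), and neither passed (adjusted p = 0.21 and 0.48). On totals without the most abundant feature it passed with shSNHG1#1 (0.23, adjusted p = 0.00356) and shSNHG1#2 (0.20, adjusted p = 0.00912). The medians of all features on that scaling were 0.17 and 0.16. The ratio of ACACA to ACACB within a library was 3.14 ± 0.0431 with shSNHG1#1, 2.99 ± 0.215 with shSNHG1#2 and 2.11 ± 0.0922 with shNC.

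FASN, the synthase that completes palmitate, moved the most of the 10 genes against shNC. It had 28.3, 25.4 and 28.0 FPKM with shSNHG1#1, 25.5, 24.2 and 23.5 FPKM with shSNHG1#2, and 14.5, 14.5 and 16.2 FPKM with shNC. All 6 libraries with an SNHG1 hairpin were above 23 FPKM and all 3 shNC libraries were below 17 FPKM. FASN rose 1.75-fold with shSNHG1#1 (log2 fold change 0.81, SE 0.05, adjusted p = 5.3e-07) and 1.55-fold with shSNHG1#2 (log2 fold change 0.63, SE 0.05, adjusted p = 4.3e-06). Without shSNHG1#1 replicate 1 the change with that hairpin was 0.77 on the log2 scale.

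SCD, which desaturates the stearate and palmitate made upstream, had 143, 145 and 148 FPKM with shSNHG1#1, 118, 125 and 129 FPKM with shSNHG1#2, and 153, 152 and 153 FPKM with shNC. The 3 groups did not overlap, with shSNHG1#2 lowest and shNC highest. SCD fell 1.29-fold with shSNHG1#2 (log2 fold change -0.37, SE 0.03, adjusted p = 1.5e-06), and this call stood under all 19 alternatives tried. With shSNHG1#1 it fell by 0.12 on the log2 scale (SE 0.03, adjusted p = 0.0042). That smaller fall depended on the scaling. It was -0.07 on library totals alone (adjusted p = 0.0793) and 0.03 on totals without the most abundant feature (adjusted p = 0.517). The latter scaling shifted the median of all features by 0.143, and relative to that shift SCD stood at -0.12.

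The elongases add carbons to chains, ELOVL6 mainly to the palmitate that FASN makes and ELOVL5 mainly to polyunsaturated chains. ELOVL5 had 50.2, 50.8 and 52.1 FPKM with shSNHG1#1, 49.4, 50.2 and 51.8 FPKM with shSNHG1#2, and 33.9, 33.6 and 34.0 FPKM with shNC. The libraries of the SNHG1 hairpins overlapped each other and were far above those of shNC. ELOVL5 rose 1.45-fold with shSNHG1#1 (log2 fold change 0.54, SE 0.03, adjusted p = 6.3e-08) and 1.42-fold with shSNHG1#2 (log2 fold change 0.50, SE 0.03, adjusted p = 1.4e-07).

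ELOVL6 stood at a lower level, with 8.88, 9.43 and 9.36 FPKM with shSNHG1#1, 8.99, 8.48 and 9.69 FPKM with shSNHG1#2, and 6.75, 6.42 and 5.97 FPKM with shNC. Its pattern over the groups was that of ELOVL5, with no overlap between either SNHG1 hairpin and shNC. ELOVL6 rose 1.46-fold with shSNHG1#1 (log2 fold change 0.54, SE 0.05, adjusted p = 8.8e-06) and 1.42-fold with shSNHG1#2 (log2 fold change 0.51, SE 0.05, adjusted p = 1.8e-05). The mean transcript length implied by its counts and FPKM was 4.08% longer with shSNHG1#1 and 4.73% longer with shSNHG1#2 than with shNC. This was the largest such shift of group means among the 10 genes. The libraries overlapped, at 3570 to 3644 bases with shSNHG1#1, 3553 to 3798 with shSNHG1#2 and 3415 to 3572 with shNC. The ratio of ELOVL5 to ELOVL6 was 5.54 ± 0.135 with shSNHG1#1, 5.59 ± 0.294 with shSNHG1#2 and 5.32 ± 0.346 with shNC, and the groups overlapped.

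The genes FADS1 and FADS2 lie next to each other on chromosome 11 in opposite orientation, and their products carry out successive desaturations of essential fatty acids. FADS1 had 51.6, 51.4 and 56.6 FPKM with shSNHG1#1, 47.4, 46.7 and 51.7 FPKM with shSNHG1#2, and 47.7, 47.6 and 42.7 FPKM with shNC. The shSNHG1#1 libraries lay above those of shNC, while those of shSNHG1#2 overlapped both. FADS1 rose with shSNHG1#1 by 0.16 on the log2 scale (SE 0.05, adjusted p = 0.023). That call was lost without shNC replicate 3 (log2 fold change 0.10, adjusted p = 0.109) and without shSNHG1#1 replicate 3 (0.11, adjusted p = 0.134). With shSNHG1#2 the log2 fold change was -0.01 (95% interval -0.13 to 0.10), which did not pass.

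FADS2 had 85.9, 79.7 and 87.6 FPKM with shSNHG1#1, 74.9, 73.0 and 74.9 FPKM with shSNHG1#2, and 82.2, 81.1 and 85.1 FPKM with shNC. The shSNHG1#2 libraries lay below all others, and those of shSNHG1#1 spanned those of shNC. FADS2 fell with shSNHG1#2 by 0.17 on the log2 scale (SE 0.04, adjusted p = 0.0039). The call was lost on library totals alone (-0.10, adjusted p = 0.052) and on totals without the most abundant feature (-0.02, adjusted p = 0.701). With shSNHG1#1 the log2 fold change was 0.02 (95% interval -0.06 to 0.10), and on totals without the most abundant feature it passed as higher (0.17, adjusted p = 0.00284). On that scaling the medians of all features were 0.17 with shSNHG1#1 and 0.16 with shSNHG1#2. Exons of FADS1 and FADS2 share 490 bases on opposite strands, so reads there may have been counted to either gene.

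**Figure D2:**
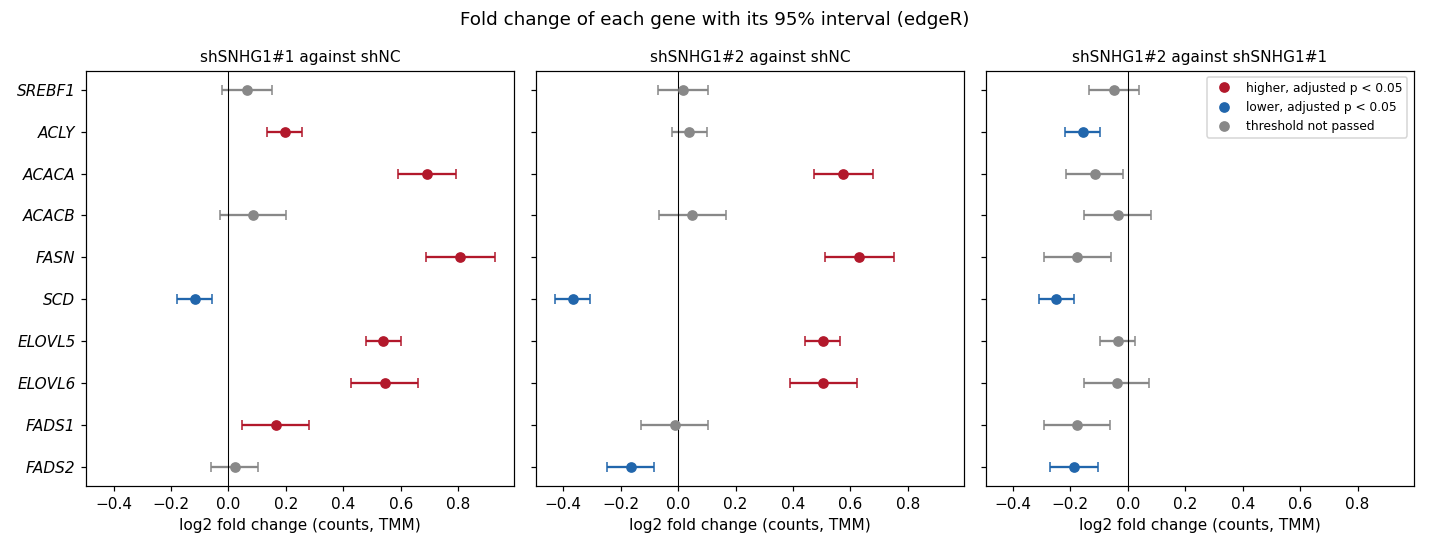
Log2 fold change of each gene (points) with its 95% interval (bars) from TMM-scaled counts, for shSNHG1#1 against shNC, shSNHG1#2 against shNC and shSNHG1#2 against shSNHG1#1. Red and blue points passed adjusted p below 0.05 as higher and lower; FASN lies furthest right in the contrasts against shNC, at 0.81 and 0.63, and all 10 points lie left of 0 between the hairpins.

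Counted over the 10 genes, 6 were higher and 1 was lower with shSNHG1#1 against shNC, and 3 did not pass. In that comparison 48.1% of all tested features passed, 24.5% as higher and 23.5% as lower. The median log2 fold change of the 10 genes was 0.18, against 0.02 for all features. With shSNHG1#2 against shNC, 4 were higher, 2 were lower and 4 did not pass, where 46.2% of all features passed, 23.3% as higher and 22.8% as lower. The median of the 10 genes was 0.045, against 0.011 for all features.

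The SNHG1 hairpins were also set against each other, a contrast that does not use shNC. With shSNHG1#2 against shSNHG1#1, 3 of the 10 genes were lower and 0 were higher by edgeR, where 3.12% of all features passed, 2% as higher and 1.12% as lower. At an unadjusted p below 0.05, 6 of the 10 were lower, where 7.43% of all features were. DESeq2 called 5 lower and 0 higher, adding FASN and FADS1, where it called 2.61% of 13665 features lower. SCD was 1.19-fold lower with shSNHG1#2 (log2 fold change -0.25, SE 0.03, adjusted p = 0.00068), ACLY fell by 0.16 (SE 0.03, adjusted p = 0.011) and FADS2 fell by 0.19 (SE 0.04, adjusted p = 0.022). The SCD call stood under all 19 alternatives.

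The calls of ACLY and FADS2 between the hairpins were lost with some libraries left out, while the size of the differences changed little. That of ACLY was lost without shSNHG1#1 replicate 3, shSNHG1#2 replicate 2 or shSNHG1#2 replicate 3, where its log2 fold change was -0.15 to -0.14 (adjusted p = 0.0521 to 0.0696). That of FADS2 was lost without those libraries or shSNHG1#1 replicate 1, where its log2 fold change was -0.18 to -0.16 (adjusted p = 0.0707 to 0.122). Each omission that lost both calls left 1 of the 10 genes, SCD, as called. The other genes had small differences that did not pass: for FASN -0.18 (95% interval -0.29 to -0.06), for FADS1 -0.18 (-0.29 to -0.06), for ACACA -0.12 (-0.21 to -0.02), for ELOVL5 -0.04 (-0.10 to 0.02) and for ELOVL6 -0.04 (-0.15 to 0.07).

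Within each library, ratios between genes do not depend on how libraries are scaled. The ratio of SCD to FASN was 5.34 ± 0.34 with shSNHG1#1, 5.09 ± 0.426 with shSNHG1#2 and 10.1 ± 0.616 with shNC (SD, n = 3 each). All libraries with an SNHG1 hairpin were below 6 in this ratio and all shNC libraries were above 9. ELOVL5 over SCD was 0.352 ± 0.00163 with shSNHG1#1, 0.408 ± 0.00874 with shSNHG1#2 and 0.222 ± 0.000761 with shNC, and the 3 groups did not overlap. ACLY over FASN was 3.47 ± 0.0877 with shSNHG1#1, 3.53 ± 0.152 with shSNHG1#2 and 5.30 ± 0.182 with shNC. ACLY over ACACA was 8.49 ± 0.331 with shSNHG1#1, 8.28 ± 0.391 with shSNHG1#2 and 12.1 ± 0.783 with shNC. FASN was thus higher relative to both ACLY, which acts before it, and SCD, which acts after it, with each hairpin. FADS2 over FADS1 was 1.59 ± 0.0668 with shSNHG1#1, 1.53 ± 0.0699 with shSNHG1#2 and 1.81 ± 0.161 with shNC. No test was run on these ratios, which were chosen with the changes of their genes known.

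**Figure D3:**
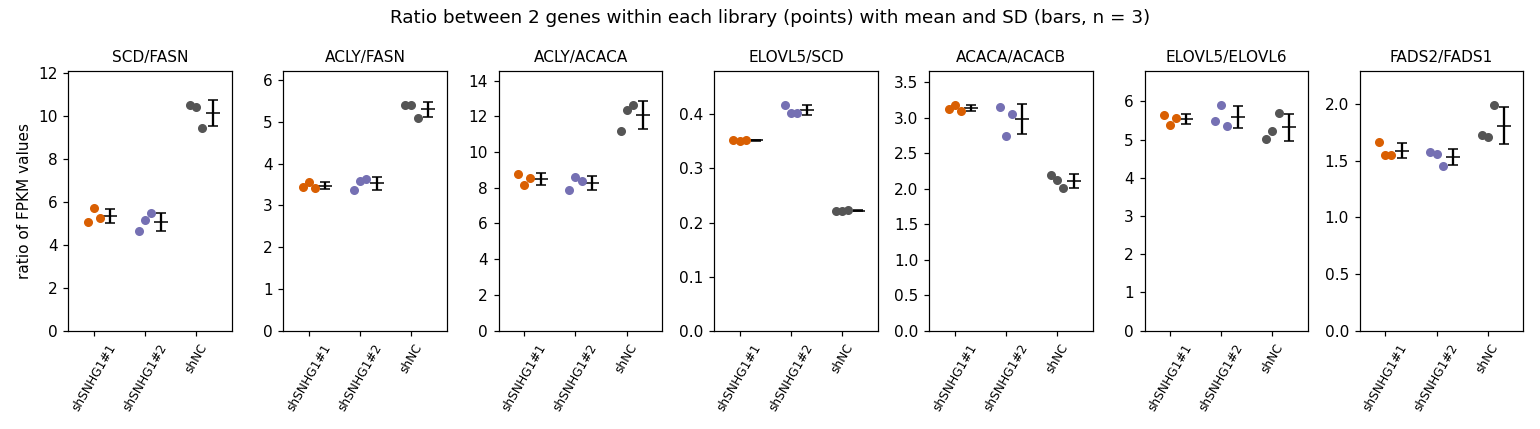
Ratio between the FPKM values of 2 genes within each library (points; vertical axes from 0), with the mean and SD of the 3 libraries of each group (bars). SCD/FASN lies below 6 with each SNHG1 hairpin and above 9 with shNC, while the groups overlap in ELOVL5/ELOVL6.

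Other genes of lipid metabolism were read from 11 lists, each without the 10 genes themselves. On totals without the most abundant feature, each of the 11 lists had more genes rising than falling with each hairpin, so the counts below hold for TMM scaling. Of all calls on those totals, 70.8% and 72.6% were higher. With TMM, 24.5% of all features rose and 23.5% fell with shSNHG1#1, and 23.3% rose and 22.8% fell with shSNHG1#2. Brackets after counts give the shares of a list that rose and fell. Transcripts that supply citrate, acetyl-CoA and NADPH were mostly higher. Of 22 tested, 14 rose and 1 fell with shSNHG1#1, and 13 rose and 2 fell with shSNHG1#2, with median log2 fold changes of 0.27 and 0.14, against 0.02 and 0.01 for all features. IDH1, a cytosolic source of NADPH, averaged 101 ± 1.75 FPKM with shSNHG1#1, 92.1 ± 2.66 FPKM with shSNHG1#2 and 55.2 ± 0.944 FPKM with shNC (log2 fold changes 0.81 and 0.67, SE 0.03 each). The cytosolic aconitase gene ACO1 had log2 fold changes of 0.92 and 0.57, and the folate enzyme gene MTHFD1 had 0.42 and 0.46. TKT, a transketolase of the pentose phosphate pathway, went the other way at 562 ± 23.2 FPKM with shSNHG1#1, 521 ± 14 FPKM with shSNHG1#2 and 712 ± 16.7 FPKM with shNC (log2 fold changes -0.39 and -0.51). The other fall with shSNHG1#2 was MTHFD2 (-0.10), chosen after its values were seen. IDH1 and ACO1 were also lower with shSNHG1#2 than with shSNHG1#1, by 0.14 and 0.35 on the log2 scale (adjusted p = 0.011 and 0.00091). The IDH1 call between the hairpins was lost without shSNHG1#1 replicate 3 or without any of the shSNHG1#2 replicates (adjusted p = 0.0529 to 0.0735), with log2 fold changes still at -0.14 to -0.12.

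The regulators of SREBP and of lipid genes leaned the other way. Of 23 tested, 4 rose and 9 fell with shSNHG1#1 (17.4% and 39.1%), and 3 rose and 9 fell with shSNHG1#2 (13% and 39.1%). Median log2 fold changes were -0.05 and -0.06. On totals without the most abundant feature the split was 10 rising and 4 falling with shSNHG1#1 and 6 rising and 4 falling with shSNHG1#2. The medians of the list were then 0.10 and 0.09, against 0.17 and 0.16 for all features. On either scaling the list lay below all features, and its direction relative to 0 depended on the scaling. INSIG2, which holds SREBP precursors in the endoplasmic reticulum, averaged 6.63 ± 0.364 FPKM with shSNHG1#1, 7.26 ± 0.26 FPKM with shSNHG1#2 and 17.9 ± 0.173 FPKM with shNC. It fell 2.86-fold and 2.58-fold (log2 fold changes -1.52 and -1.37, SE 0.05 each, adjusted p = 1.4e-09 and 3.5e-09). Its relative INSIG1, itself a target of SREBP, fell by 0.25 with shSNHG1#1 and by 0.47 with shSNHG1#2, and was lower with shSNHG1#2 than with shSNHG1#1 (-0.22, adjusted p = 0.015), a call that was lost without shSNHG1#1 replicate 3 or without any of the shSNHG1#2 replicates (adjusted p = 0.0574 to 0.0894), with log2 fold changes still at -0.22 to -0.20. On totals without the most abundant feature INSIG1 did not pass with shSNHG1#1 (-0.10, adjusted p = 0.0519). MLXIPL, which encodes the carbohydrate-responsive factor ChREBP, rose 2.41-fold and 1.99-fold and averaged 4.40 ± 0.58 FPKM with shSNHG1#1, 3.88 ± 0.156 FPKM with shSNHG1#2 and 1.53 ± 0.303 FPKM with shNC. The coactivator gene PPARGC1B rose 2.22-fold and 2.03-fold. SREBF2, which encodes the factor for sterol genes and was chosen after its values were seen, did not pass (log2 fold changes -0.05 and -0.09).

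Genes of sterol synthesis and uptake that respond to SREBP were split. Of 22 tested, 7 rose and 3 fell with shSNHG1#1, and 4 rose and 5 fell with shSNHG1#2, with medians of 0.08 and -0.01. HMGCS1, an early enzyme of sterol synthesis, fell by 0.35 and 0.39, and the sterol carrier gene STARD4 fell by 0.48 and 0.45. Shares of features called were 24.5% and 23.3% higher, and 23.5% and 22.8% lower, so the counts of this list lie around those of all features.

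Control of acetyl-CoA carboxylase also ran in both directions. Of 17 tested genes, 4 rose and 5 fell with shSNHG1#1, and 3 rose and 4 fell with shSNHG1#2, with medians of 0.04 and 0.07. TRIB3, which in mouse fat tissue brings the carboxylase to degradation, averaged 37.0 ± 1.07 FPKM with shSNHG1#1, 39.98 ± 2.15 FPKM with shSNHG1#2 and 82.4 ± 1.84 FPKM with shNC (log2 fold changes -1.23 and -1.13). PRKAG2 and PRKAA2, subunits of the AMP-activated kinase that phosphorylates and inhibits the carboxylase, had log2 fold changes of -0.66 and -0.70, and of -0.48 and -0.36. PRKAA2 lost its calls where FPKM values were tested in place of counts (adjusted p up to 0.484), and with shSNHG1#2 also on totals without the most abundant feature (-0.21, adjusted p = 0.0546). BRCA1, whose protein binds phosphorylated ACACA, had log2 fold changes of 0.51 and 0.59. On totals without the most abundant feature the split was 10 rising and 3 falling with shSNHG1#1, and 11 rising and 2 falling with shSNHG1#2.

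Among genes of elongation and desaturation outside the 10, more rose than fell. Of 20 tested, 11 rose and 1 fell with shSNHG1#1 (55% and 5%), and 8 rose and 1 fell with shSNHG1#2 (40% and 5%). Their medians were 0.20 and 0.13. HACD3, a dehydratase of the elongation cycle, averaged 79.4 ± 2.16 FPKM with shSNHG1#1, 79.2 ± 0.315 FPKM with shSNHG1#2 and 46.9 ± 0.74 FPKM with shNC (log2 fold changes 0.71 and 0.69, SE 0.03 each). HACD2 and HACD4, of the same family, had log2 fold changes of 0.33 and 0.27, and of 0.99 and 0.70; the second value of HACD4 did not pass where FPKM values were tested (adjusted p = 0.0716 to 0.109). SCD5, the other human stearoyl-CoA desaturase, averaged 9.54 ± 0.561 FPKM with shSNHG1#1, 8.49 ± 0.553 FPKM with shSNHG1#2 and 6.49 ± 0.278 FPKM with shNC (log2 fold changes 0.51 and 0.32, adjusted p = 0.00014 and 0.0035). Its direction was opposite to that of SCD on this scaling, at a level far below that of SCD. The gene that fell was CYB5R3, a reductase that passes electrons to desaturases (-0.22 with each hairpin), chosen after its values were seen.

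In fatty acid oxidation, the opposing path, more genes rose than fell. Of 29 tested genes, 17 rose and 2 fell with shSNHG1#1 (58.6% and 6.9%), and 11 rose and 2 fell with shSNHG1#2 (37.9% and 6.9%). Medians of this list were 0.32 and 0.20. HADH, a dehydrogenase of mitochondrial oxidation, averaged 10.1 ± 0.401 FPKM with shSNHG1#1, 9.21 ± 0.114 FPKM with shSNHG1#2 and 5.80 ± 0.433 FPKM with shNC (log2 fold changes 0.75 and 0.61). The peroxisomal transporter gene ABCD3 had log2 fold changes of 0.79 and 0.68, and the peroxisomal enzyme gene EHHADH had 0.58 and 0.66. The genes that fell were HADHB (-0.14 and -0.21) and ETFDH (-0.34 and -0.37), chosen after their values were seen. The medians of the 10 genes of synthesis were 0.18 and 0.045, against 0.023 and 0.011 for all features. With shSNHG1#2 the 10 genes thus lay nearer to all features than the oxidation genes did.

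Storage of fatty acids in droplets held the largest falls among these lists. Of 29 tested genes of glycerolipid synthesis and lipid droplets, 9 rose and 8 fell with shSNHG1#1 (31% and 27.6%). The counts with shSNHG1#2 were 9 and 7 (31% and 24.1%), and the medians were 0.13 and 0.13. PLIN2, which coats droplets, averaged 41.4 ± 1.22 FPKM with shSNHG1#1, 41.7 ± 1.29 FPKM with shSNHG1#2 and 194 ± 2.84 FPKM with shNC, a fall of 4.89-fold and 4.90-fold (adjusted p = 5.4e-12 and 8.4e-12). HILPDA, an inhibitor of droplet lipolysis that is induced by hypoxia, averaged 46.3 ± 0.801 FPKM with shSNHG1#1, 62.5 ± 3.19 FPKM with shSNHG1#2 and 256 ± 3.02 FPKM with shNC, a fall of 5.71-fold and 4.28-fold, and it was higher with shSNHG1#2 than with shSNHG1#1 (log2 fold change 0.415, adjusted p = 0.00031). DGAT2, which completes triglycerides, rose 3.92-fold and 4.23-fold and averaged 3.95 ± 0.235 FPKM with shSNHG1#1, 4.37 ± 0.367 FPKM with shSNHG1#2 and 1.01 ± 0.122 FPKM with shNC. LIPE, the hormone-sensitive lipase, had log2 fold changes of 0.67 and 0.53 at under 2 FPKM. CIDEC, a droplet protein gene of this list and the adipocyte marker that moved most, lay at 0.99 to 1.47 FPKM with shSNHG1#1, 1.18 to 1.31 FPKM with shSNHG1#2 and 0.10 to 0.26 FPKM with shNC, and was chosen after its values were seen.

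The remaining lists held genes moving in both directions. Of 19 tested acyl-CoA synthetases, transporters and binding proteins, 7 rose and 4 fell with shSNHG1#1 (36.8% and 21.1%). With shSNHG1#2, 5 rose and 4 fell (26.3% and 21.1%), near the shares of all features. The medians were 0.05 and 0.02. Without shSNHG1#1 replicate 1, the counts with shSNHG1#1 were 5 and 4. The thioesterase gene ACOT7 rose 1.72-fold and 1.52-fold, and the fatty acid transporter gene SLC27A4 had log2 fold changes of 1.43 and 1.10 with large errors (SE 0.31 each); with shSNHG1#2 it lost its call without shNC replicate 1 (0.93, adjusted p = 0.0617) or shSNHG1#2 replicate 1 (0.68, adjusted p = 0.0552). MFSD2A, which carries lysophospholipids with docosahexaenoic acid, had log2 fold changes of 0.37 and 0.60, and the synthetase gene ACSL1 had 0.33 and 0.23. Of 26 tested genes of phospholipid synthesis and remodelling, 10 rose and 7 fell with shSNHG1#1 (38.5% and 26.9%). The counts with shSNHG1#2 were 9 and 5 (34.6% and 19.2%), and the medians were 0.13 and 0.06. The lysophosphatidylcholine acyltransferase gene LPCAT1 fell 1.58-fold and 1.62-fold and the phosphotransferase gene CEPT1 had log2 fold changes of -0.38 and -0.44. PCYT2, of phosphatidylethanolamine synthesis, had log2 fold changes of 0.56 and 0.35, and the acyltransferase gene MBOAT2 had 0.48 and 0.50. CEPT1 with shSNHG1#1 and MBOAT2 with each hairpin lost their calls where FPKM values were tested.

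Of 22 tested genes that use polyunsaturated fatty acids, 8 rose and 6 fell with shSNHG1#1 (36.4% and 27.3%). The counts with shSNHG1#2 were 6 and 6 (27.3% and 27.3%), and the medians were 0.10 and -0.01. Without shSNHG1#1 replicate 1, which had 5.73 FPKM of the prostaglandin synthase gene PTGDS against at most 0.94 FPKM elsewhere, 7 rose and 6 fell with shSNHG1#1 and the median was -0.01. PTGS2, the inducible cyclooxygenase that acts on arachidonic acid, averaged 171 ± 6.07 FPKM with shSNHG1#1, 161 ± 5.77 FPKM with shSNHG1#2 and 232 ± 7.54 FPKM with shNC (log2 fold changes -0.49 and -0.60). HPGD, which inactivates prostaglandins, had log2 fold changes of 0.40 and 0.47, and the epoxide hydrolase gene EPHX1 had 0.72 and 0.70. The lipoxygenase gene ALOX15B stayed below 1 FPKM on average in each group (log2 fold changes -0.45 and -0.74), and with shSNHG1#1 it lost its call without shNC replicate 3 or shSNHG1#1 replicate 3 (-0.37 and -0.36, adjusted p = 0.0879 and 0.0825) and on totals without the most abundant feature (-0.31, adjusted p = 0.0998). Of 11 tested genes of mitochondrial fatty acid synthesis, 2 rose and 2 fell with shSNHG1#1 (18.2% and 18.2%). The counts with shSNHG1#2 were 1 and 1 (9.09% and 9.09%), and the medians were 0.01 and 0. Without shSNHG1#1 replicate 1, 2 rose and 1 fell with shSNHG1#1. Its synthase gene OXSM fell by 0.57 and 0.52, and its reductase gene CBR4 had log2 fold changes of 0.58 and 0.49.

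**Figure D4:**
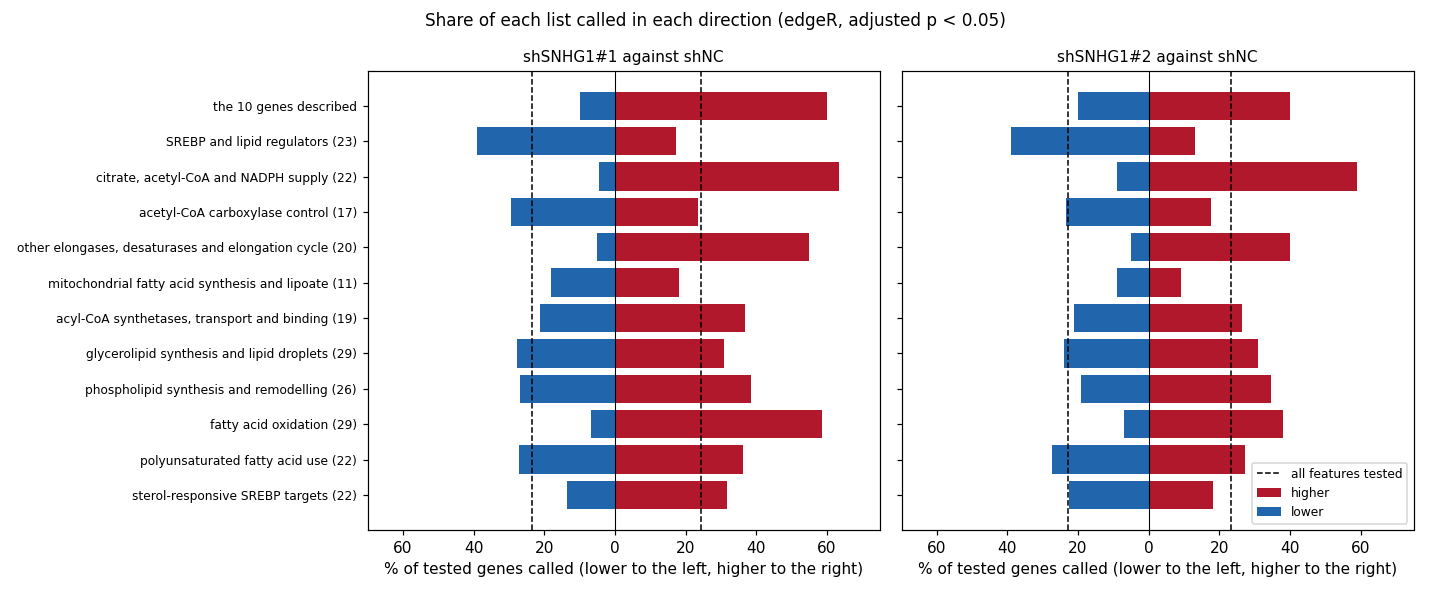
Share of each list's tested genes (number in brackets) called lower (left of 0) or higher (right of 0) at adjusted p below 0.05, for shSNHG1#1 and shSNHG1#2 against shNC; dashed lines give the shares of all 18767 tested features. The bars for citrate, acetyl-CoA and NADPH supply, elongation and fatty acid oxidation reach furthest right of the dashed line with each hairpin. Those of the SREBP regulators reach furthest left. Acyl-CoA synthetases and transport, glycerolipids, phospholipids and polyunsaturated fatty acid use also pass the right line with each hairpin. Carboxylase control, glycerolipids and polyunsaturated fatty acid use also pass the left line with each. With shSNHG1#1 alone, sterol genes also pass on the right and phospholipids on the left.

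The genes whose profile over the 9 libraries lay nearest to that of FASN were C12orf75, GPC1 and ACOT7, out of 17572 with an Entrez gene identifier. Nearness was the Euclidean distance of log2 CPM (counts scaled to library size) centred on each gene's mean. Their distances were 0.115, 0.143 and 0.147. C12orf75 had log2 fold changes of 0.82 and 0.64, GPC1 had 0.71 and 0.61, and ACOT7 had 0.78 and 0.61, against 0.81 and 0.63 for FASN. This likeness is a description and was not tested.

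**Figure D5:**
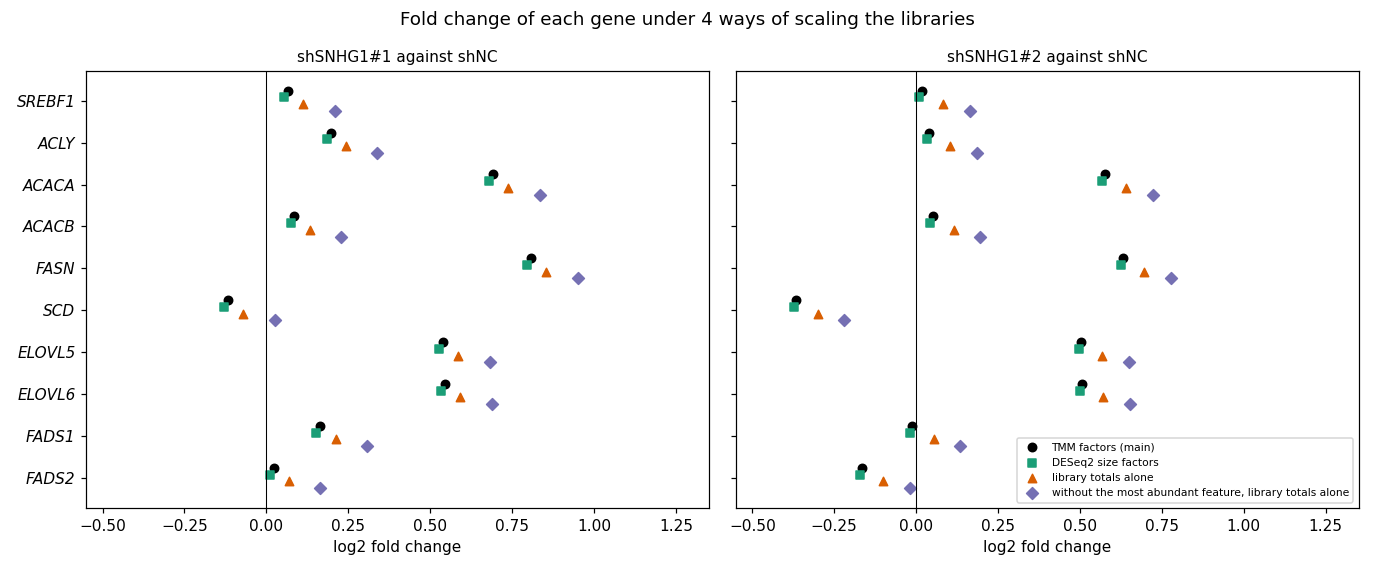
Log2 fold change of each gene against shNC under 4 ways of scaling the libraries (symbols). All 4 scalings leave FASN, ACACA, ELOVL5 and ELOVL6 right of 0.4, while SCD with shSNHG1#1 runs from -0.13 to 0.03.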

How the data were processed

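RNA sequencing was done on 9 libraries. The deposited table gives estimated counts, which the authors left unscaled and which need not be whole, and a column named only exp per the file headers. The values of that column, deposited by the authors, behave as FPKM: count, library total and value give a transcript-sized length. Per the submitters' processing notes, the tools were RSEM 1.2.12, HISAT2 2.0.4, DESeq2 1.4.5 and Bowtie2 2.2.5, whose roles are not stated. Strand use, annotation and genome build were not given in the sources used here. Columns were matched to the hairpins by name.

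Counts were rounded and tested with edgeR 4.0.16 (R 4.3.3): TMM factors (0.9714 to 1.0273), filterByExpr, a quasi-likelihood F test fitted to the 9 libraries by group alone, Benjamini-Hochberg adjustment over 18767 features and a threshold of 0.05. Standard errors and 95% intervals came from the F statistic. DESeq2 1.42.0 and limma 3.58.1 on log2(FPKM + 0.5 or 0.1) were alternatives, beside other scalings, no filter, only the groups compared, a replicate block and leaving out each library. Replicates of a group differed by more than sampling noise (chi-square per degree of freedom 3.06 to 6.5, features with a summed count of at least 100). Exon overlaps were taken from GENCODE 29.

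The 10 genes and the 11 lists were chosen with earlier results of these data known. From each list, up to 4 genes are named that passed in 1 direction with each hairpin at a mean log2 CPM of at least 2, by the size of their mean change. A gene may stand in more than one list. Some genes that this rule names are not reported here.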

Additional observations from a re-analysis of the deposited data

Results flagged for a closer look

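Between the hairpins, 3 of the 10 genes differed by the test of the difference itself (edgeR, Benjamini-Hochberg adjustment), and each was lower with shSNHG1#2 than with shSNHG1#1. SCD had a log2 fold change of -0.25 (124 ± 5.25 FPKM with shSNHG1#2 and 145 ± 2.43 FPKM with shSNHG1#1, SD, n = 3 each), and its libraries did not overlap. ACLY had a log2 fold change of -0.16 (86.0 ± 0.668 FPKM with shSNHG1#2 and 94.4 ± 3.27 FPKM with shSNHG1#1). FADS2 had a log2 fold change of -0.19 (74.3 ± 1.09 FPKM with shSNHG1#2 and 84.4 ± 4.13 FPKM with shSNHG1#1). The libraries of the hairpins did not overlap in ACLY or FADS2 either. Of 19 alternatives, 6 lost the call of ACLY and 5 lost that of FADS2. Groups of 3 libraries are too small for the check on single outlying samples.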

How the results depend on the processing

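FASN, ACACA, ELOVL5 and ELOVL6 against shNC, and SCD with shSNHG1#2 against either other group, kept direction and call under all 19 alternatives. One scaling, totals without the most abundant feature, was added after seeing the data. It turned SCD with shSNHG1#1 against shNC to 0.025 and shifted the median of all features by 0.143 (shSNHG1#1) and 0.147 (shSNHG1#2); relative to that shift SCD stood at -0.12. Under it 9 of the 10 genes were higher with shSNHG1#1, where 6890 of 18768 features were higher and 2848 lower. With shSNHG1#2, 7 genes were higher and 1 lower, where 6742 of 18768 features were higher and 2545 lower. The higher share of all calls was 70.8% and 72.6%, against 51.0% and 50.5% with TMM. On library totals alone 7 genes were higher with shSNHG1#1, where 5264 of 18767 features were higher and 3819 lower. With shSNHG1#2, 5 genes were higher and 1 lower, where 5344 of 18767 features were higher and 3426 lower. The higher share of all calls was 58.0% and 60.9% on these totals. For shSNHG1#2 against shSNHG1#1 it was 74.8%, against 64.0% with TMM.

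For shSNHG1#2 against shSNHG1#1, DESeq2 called 5 of the 10 genes and 959 features, limma on FPKM without a filter 1 gene and 360 features, and edgeR on only these groups 386 features, against 586; the cause was not tested. With limma on FPKM, SCD with shSNHG1#1 against shNC did not pass (adjusted p = 0.102 to 0.144), ACLY passed with shSNHG1#2 against shNC (0.0202 to 0.0302), and ACLY did not pass with shSNHG1#2 against shSNHG1#1 (0.0766 to 0.107). Leaving out each library gave 6 to 7, 6 to 6 and 1 to 3 of the 10 genes, and 8051 to 8939, 7676 to 8753 and 297 to 534 features, for shSNHG1#1 against shNC, shSNHG1#2 against shNC and shSNHG1#2 against shSNHG1#1.

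Replicate numbers did not pair libraries: same-numbered ones correlated between -0.145 and 0.043 in their deviations from group means, and 1 of 9 libraries was closest to its own number. With the replicate block 7, 6 and 3 of the 10 genes and 8752, 8421 and 433 features passed in the same order. Of 132 results for the other named genes, 117 were the same under all alternatives; among 2508 values 41 lost and 4 gained a call, and 0 reversed. Depth was near equal in all libraries.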
